A study of Homo sapiens with 12 samples.

Results

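The sites described here are m6A sites whose 5-mer reads AGACH or TGACH, where the last letter H stands for any base but G and the methylated adenosine is the third letter. They were chosen by the letters of the 5-mer alone, a G in second place and an A or T in first place. They made up 52148 of the 160249 rows in both site lists, and covered 43543 distinct positions. The other rows were 51436 sites with GGACH, called double-G sites here, and 56665 sites with an A before the methylated base. Every group came from HEK293E cells, a human embryonic kidney line, kept overnight without serum before 200 nM insulin was added for 30 h. In one condition Torin1, which blocks the kinase mTOR, was added beforehand at 250 nM. All RNA was poly(A) selected in 2 rounds. It was sequenced directly as input, or used for miCLIP with a polyclonal antibody to m6A, giving 4 groups of 3 replicates that the labels call biological. No group without insulin and none with Torin1 alone was analysed here.

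N6-methyladenosine is laid down on mRNA by a writer complex around METTL3 and METTL14, which prefers the consensus DRACH (D stands for any base but C, R for a purine). The double-G form is the best known form of that consensus, and it is commonly found near stop codons and in 3′ untranslated regions. YTH-domain proteins read the mark, and the enzymes FTO and ALKBH5 can remove it. In miCLIP an antibody is crosslinked to the RNA, and substitutions in the reads locate the methylated base. The kinase mTOR, which insulin activates, controls translation and cell growth.

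Sequence around a site could be read where a RefSeq window covered it. At 3916 of 3916 such positions, with every sequence class counted, RefSeq held the listed 5-mer at the listed place and strand. The 21-base contexts below show each of the 6 member 5-mers, in capitals, in a protein-coding gene, all on GRCh38.p14 and read 5′ to 3′ on the strand of the site.
WDR74, chr11:62833067-62833087, minus strand: agacacagAGACAgatgaact
METTL4, chr18:2571362-2571382, minus strand: aggtcggaAGACCtgtgggca
RASA1, chr5:87268820-87268840, plus strand: gcttgctgAGACTctcgggcc
RPL27, chr17:43000001-43000021, plus strand: ccgcaaagTGACAgctgccat
RPL27, chr17:42999981-43000001, plus strand: gctggaatTGACCgctacccc
MSL1, chr17:40122049-40122069, plus strand: gccgggggTGACTgtggggga
The site in RASA1, a negative regulator of Ras, had 5 substituted of 38 reads with insulin and 2 of 60 with Torin1. In MSL1, a subunit of a histone acetyltransferase complex, the site had 6 of 157 and 6 of 126. The METTL4 site was substituted in 1 of 1 read and in 8 of 8. In WDR74 the numbers were 3 of 12 and 2 of 9. The neighbouring sites in RPL27, a ribosomal protein gene, had 1 of 159 and 8 of 371 at TGACA, and 1 of 110 and 2 of 330 at TGACC. Among these 6 sites, those with many reads had a small share of them substituted, and at the METTL4 site, with few reads, every read was substituted.

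Member sites also fell in annotated miRNA hairpins inside host genes, and 3 found in both lists are shown because the hairpin gives their local sequence. Coordinates and strands are as above.
MIR3652 in HSP90B1, chr12:103930488-103930508, plus strand: gggacttgAGACTcaccggcc
MIR6501 in SON, chr21:33550677-33550697, plus strand: gcctttggTGACAgcagcagt
MIR1182 in FAM89A, chr1:231019832-231019852, minus strand: gagggatgTGACTgttgggaa
The site in HSP90B1, which encodes a chaperone of the endoplasmic reticulum, had 4 of 99 reads substituted with insulin and 1 of 271 with Torin1. In FAM89A the numbers were 3 of 59 and 2 of 262, and in SON, which encodes a scaffold of nuclear speckles, 1 of 5 and 3 of 52. Whether the reads came from the host mRNA or from the hairpin's own transcript cannot be told apart.

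Bases beyond the 5-mer were tallied over the 876 member positions with a context, which lie near gene starts or in hairpins and do not stand for all members. At 3 bases before the methylated A, members had G in 37.9%, C in 31.4%, A in 19.1% and T in 11.6%. At the same place the 1219 double-G positions had T in 21.6% and C in 22.3%. One base further out, members had A in 32.6% and C in 22.7%, against 16.2% and 37.8% at double-G sites. Flanking bases as a whole were alike, with G at 32.3% for members and 34.3% for double-G sites. These shares are a description with no test.

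Members were close to an equal share of the sites in every miCLIP library. They made up 32.4%, 33.5% and 32.8% of the sites listed under insulin replicates 1, 2 and 3, a mean of 32.9% ± 0.567 (SD, n = 3). With Torin1 the shares were 32.1%, 32.6% and 31.9%, a mean of 32.2% ± 0.351 (SD, n = 3). The groups overlapped, and the difference of -0.681 percentage points was not called (exact permutation test over libraries, two-sided, p = 0.2; the smallest p that 3 against 3 allows is 0.1). Over the whole lists the share was 32.9% with insulin (Wilson 95% interval 32.6% to 33.2%) and 32.1% with Torin1 (31.7% to 32.4%). Numbers of sites differed far more than shares. Member sites numbered 16399, 13287 and 2080 under insulin replicates 1 to 3, and 18046, 506 and 1830 under Torin1 replicates 1 to 3, so Torin1 replicate 1 held most of its list.

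**Figure D1:**
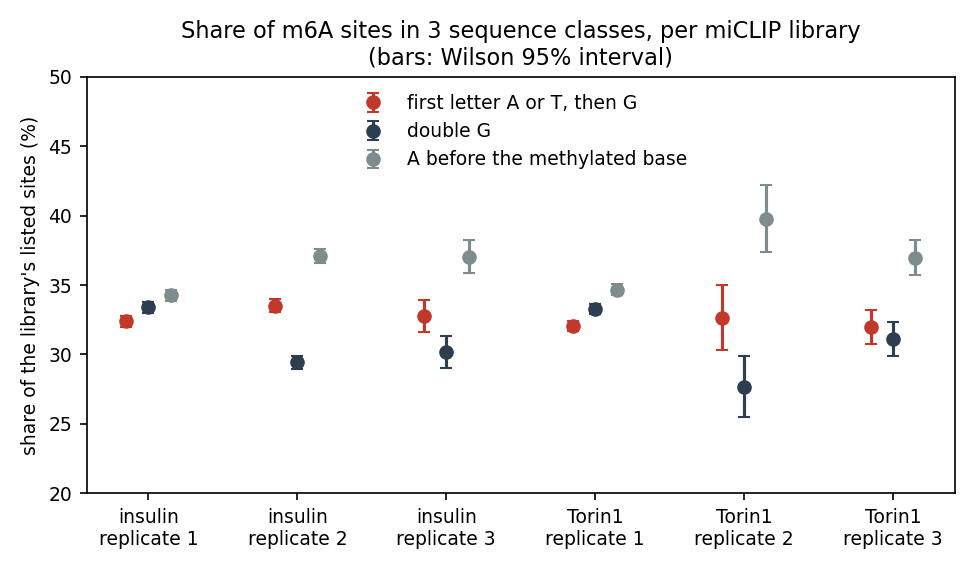
Share (%) of each miCLIP library's listed sites in 3 sequence classes, with Wilson 95% intervals as bars and the y axis starting at 20%. Sites with first letter A or T and second letter G stay between 31.9% and 33.5% in all 6 libraries, and Torin1 replicate 2, with 506 such sites, has the widest interval.

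Within the class, A came first more often than T. The AGAC share of members was 59.2%, 57.0% and 55.0% in insulin replicates 1 to 3 (57.1% ± 2.11, SD, n = 3) and 58.7%, 55.1% and 57.3% in Torin1 replicates 1 to 3 (57.1% ± 1.79, SD, n = 3). The groups overlapped, and the difference of -0.0121 points was not called (exact permutation test, p = 1). By 5-mer the insulin list held 8284 AGACT, 7021 AGACA, 6549 TGACT, 4654 TGACA, 3120 AGACC and 2138 TGACC sites. In the Torin1 list the order was the same, with 5542, 4505, 4254, 2915, 1873 and 1293.

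Members ended in T more often, and in A or C less often, than double-G sites did in the same libraries. T was the last letter of 48.4%, 44.99% and 44.4% of members in insulin replicates 1 to 3, and of 48.2%, 49.0% and 46.6% in Torin1 replicates 1 to 3. Averaged over 6 libraries it stood at 46.9% of members and 35.9% of double-G sites, a difference of 10.99 ± 1.69 points (SD over libraries, n = 6). The last letter was A in 36.4% and 41.9%, a difference of -5.50 ± 2.03, and C in 16.7% and 22.2%, a difference of -5.49 ± 0.677. Each of these 3 differences had one sign in 6 of 6 libraries (exact sign-flip permutation test, two-sided, p = 0.03125, the smallest that 6 libraries allow, and adjusted p = 0.0443 over 34 tests). Each position is listed under 1 replicate, so the libraries of a list do not share sites, and the test does not account for this. Among members, TGAC sites ended in T more often than AGAC sites, at 48.9% against 45.4%, and less often in A, at 34.6% against 37.7%, again with one sign in 6 of 6 libraries (exact permutation p = 0.03125 for both, adjusted p = 0.0443). For C the values were 16.5% and 16.9% (exact permutation p = 0.375, adjusted p = 0.398). Limiting the sites to at least 10 reads left 17 members in Torin1 replicate 2. It changed the members' difference from double-G sites to -0.834 for A (exact permutation p = 0.906) and 9.32 for T (p = 0.0625), and turned that of AGAC from TGAC members to -4.67 for A (p = 0.875) and 1.90 for T (p = 0.906). With at least 5 reads neither of the latter was called, at 0.977 for A (exact permutation p = 0.562) and -1.19 for T (p = 0.531).

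**Figure D2:**
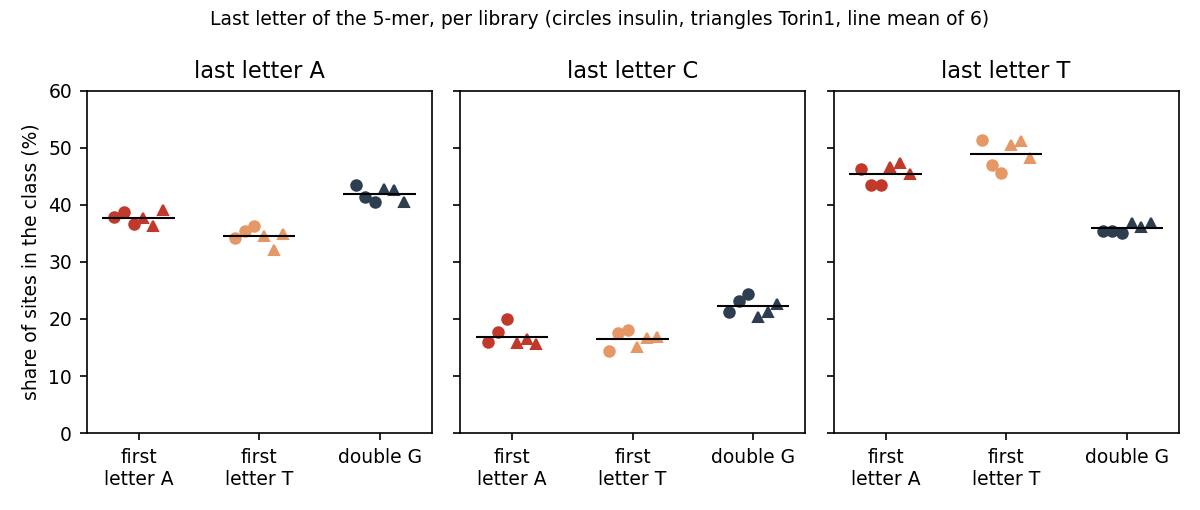
Share (%) of sites ending in A, C or T, within AGAC members (first letter A), TGAC members (first letter T) and double-G sites, per library, with insulin as circles, Torin1 as triangles and the mean of 6 libraries as a line. Members average 46.9% ending in T, above the 35.9% of double-G sites.

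Most member sites rested on few substituted reads. In the insulin list the median number of reads over a member was 8 (quartiles 3 and 20, highest 2048), and in the Torin1 list it was 13 (quartiles 4 and 35, highest 9421). The mean number of substituted reads was 1.73 and 1.96. A single substituted read supported 62.1% of members with insulin and 60.3% with Torin1, while 173 and 242 had 10 or more. The deposited fraction, which equals substituted reads divided by reads, had a median of 0.167 with insulin and 0.117 with Torin1. It was 1 at 5119 members with insulin, of which 73.0% had a single read, and at 2991 with Torin1, of which 72.5% had a single read. Most members at a fraction of 1 thus had a single read over them.

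Libraries with fewer listed sites also had fewer reads per site. Mean reads per member were 20.9, 17.0 and 3.98 in insulin replicates 1 to 3 and 43.8, 2.89 and 3.04 in Torin1 replicates 1 to 3, so that the groups overlapped. Substituted reads pooled over members were 9.06%, 9.32% and 33.9% of reads with insulin and 4.64%, 61.8% and 44.3% with Torin1. A difference between conditions in this percentage was not called (exact permutation p = 0.4).

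Double-G sites were substituted slightly more than members. The pooled substituted percentage averaged 27.2% for members and 29.1% for double-G sites over 6 libraries, lower for members in 6 of 6 (difference -1.92 ± 1.58, SD, exact permutation p = 0.03125, adjusted p = 0.0443). Mean substituted reads were 1.67 and 1.78, lower for members in 5 of 6 libraries and not called (exact permutation p = 0.0625, adjusted p = 0.0817). Mean reads were 15.3 and 14.8 (exact permutation p = 0.344). Taking the mean of the sites' own fractions instead gave -0.493 points (exact permutation p = 0.438). The class also thinned out at the top of the lists. In the insulin list members were 33.1% of sites with 1 substituted read and 26.3% of sites with 10 or more, where double-G sites went from 29.9% to 49.6%. With Torin1 members went from 32.5% to 27.3% and double-G sites from 30.5% to 49.3%. Sites with A before the methylated base thinned out as well, from 37.0% to 24.0% with insulin and from 37.1% to 23.4% with Torin1.

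Compared with sites that have an A before the methylated base, members carried more reads and more substituted reads. Mean reads were 15.3 against 13 and mean substituted reads 1.67 against 1.60, and 64.4% against 67.8% of sites had a single substituted read. The pooled percentage was lower in members, 27.2% against 29.9%. Each difference had one sign in 6 of 6 libraries (exact permutation p = 0.03125, adjusted p = 0.0443 for each). Without Torin1 replicate 1 the difference in reads was 1.24 in place of 2.26, and without Torin1 replicate 2 that in substituted reads was 0.0364 in place of 0.0696 and that in sites with a single substituted read -1.86 in place of -3.43. With at least 5 reads per site the differences were 1.68 for reads (exact permutation p = 0.188) and 0.0816 for substituted reads (p = 0.25), and the pooled percentage was 1.11 points higher in members (p = 0.688). With at least 10 reads, and with medians over sites, reads (0.783 and 1.17) and substituted reads (0.0412 and 0) were not called either (exact permutation p from 0.125 to 1).

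The first and the last letter each went with the mean substituted reads and the pooled percentage of member sites. Median substituted reads differed by 0 for either letter. AGAC members had fewer reads than TGAC members, 14.6 against 16.2 on average, but more substituted reads, 1.70 against 1.62, and a higher pooled percentage, 29.1% against 25.0% (6 of 6 libraries for each, exact permutation p = 0.03125, adjusted p = 0.0443). Members ending in T had 1.73 substituted reads on average and those ending in C had 1.49, and their pooled percentages were 28.8% and 21.4% (6 of 6 libraries for both, exact permutation p = 0.03125, adjusted p = 0.0443). A single substituted read supported 63.3% of members ending in T and 69.6% of those ending in C, with the same test result. The lowest 5-mer of all was TGACC, with 5.18% of reads substituted in the insulin list and 2.67% in the Torin1 list, against 12.1% and 6.61% for AGACA.

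For each 5-mer, the site with the most substituted reads summed over the lists was taken among sites in both lists. Only sites in exactly 1 protein-coding gene were eligible, and 1 chromosome was left out. Each site so chosen, called the strongest here, was listed under replicate 1. EEF2, which encodes the elongation factor that moves the ribosome along mRNA, held the AGACT site with the most substituted reads at chr19:3976468 on the minus strand, 412 nt from the annotated gene end. It had 94 of 2048 reads substituted with insulin (4.59%, Wilson 95% interval 3.77% to 5.58%) and 292 of 8325 with Torin1 (3.51%, 3.13% to 3.92%). The strongest AGACA site, chr19:3976347, lay in the same gene with 18 of 1228 and 59 of 4625. TPT1, which encodes the abundant growth-related protein TCTP, held the strongest TGACT site in a protein-coding gene, at chr13:45337261. It had 36 of 380 reads (9.47%, 6.92% to 12.8%) and 93 of 1541 (6.04%, 4.95% to 7.34%). A TGACT position outside protein-coding gene bodies, chrX:73852679, had more substituted reads, 47 with insulin and 179 with Torin1. EEF2, TPT1 and RPL27 belong to the abundant translation genes, and processed pseudogenes of TPT1 and RPL27 could take part of their reads. At the positions in EEF2 and TPT1 the substituted fraction was lower and reads were more numerous in the Torin1 list. The intervals of both lists overlap there, and the difference in fraction was not tested.

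The other 5-mers peaked in genes with fewer reads. IRS2, an adaptor of the insulin receptor, held the strongest AGACC site at chr13:109782327, with 15 of 58 reads substituted with insulin (25.9%) and 30 of 118 with Torin1 (25.4%). EIF4G1, the scaffold of the cap-binding initiation complex, held the strongest TGACA site at chr3:184321572, with 15 of 100 (15%) and 27 of 165 (16.4%). ICMT, a methyltransferase for prenylated proteins, held the strongest TGACC site at chr1:6225061, with 17 of 150 (11.3%, 7.20% to 17.4%) and 22 of 347 (6.34%, 4.22% to 9.41%). Some members were substituted in nearly every read. At chr22:20952769 in CRKL, a signalling adaptor, a TGACT site had 63 of 65 reads substituted with insulin and 32 of 36 with Torin1. An AGACT position outside protein-coding gene bodies, chr2:38482535, had 35 of 38 and 128 of 135. The TGACT position with the most reads, chrX:73852679, also outside protein-coding gene bodies, had 47 of 1668 and 179 of 9421.

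Both lists held 8605 of the same member positions on the same strand, each with the same 5-mer. They were 27.1% of the insulin list's members (Wilson 95% interval 26.6% to 27.6%) and 42.2% of the Torin1 list's members (41.5% to 42.9%), lists of unequal size. Of these, 4960 were listed under replicate 1 in both lists. By library, 33.2%, 21.1% and 17.6% of members in insulin replicates 1 to 3 were shared, and 43.2%, 37.5% and 33.4% in Torin1 replicates 1 to 3. Sharing lay below that of double-G sites, 31.0% against 36.4% on average over libraries (difference -5.38 ± 2.19, SD), and above that of sites with A before the methylated base, 26.8% (difference 4.23 ± 3.42). Both differences had one sign in 6 of 6 libraries (exact permutation p = 0.03125, adjusted p = 0.0443). With at least 3 substituted reads per site the differences were -3.70 (exact permutation p = 0.0625) and 2.96 (p = 0.0938), and with at least 10 reads they were -4.86 (p = 0.312) and 2.63 (p = 0.344). With at least 5 reads they were -7.82 (exact permutation p = 0.03125) and 0.878 (p = 0.5), so the second call was lost. Shared positions count once in each list, so the percentages of insulin and Torin1 libraries are tied, and the test over 6 libraries does not account for this.

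Sharing rose with the number of substituted reads. In insulin replicate 1, 24.5% of members with 1 substituted read were in the Torin1 list, then 33.7% with 2, 52.9% with 3 to 4, 75.4% with 5 to 9 and 91.4% with 10 or more. In Torin1 replicate 1 the same steps were 33.4%, 44.8%, 63.6%, 86.4% and 97.5%. Among sites with 1 substituted read, double-G sites were shared at 30.4% and 39.1%, above the members, and the intervals of both classes overlapped at 10 or more. The class difference in sharing was thus present at equal numbers of substituted reads in the low range.

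**Figure D3:**
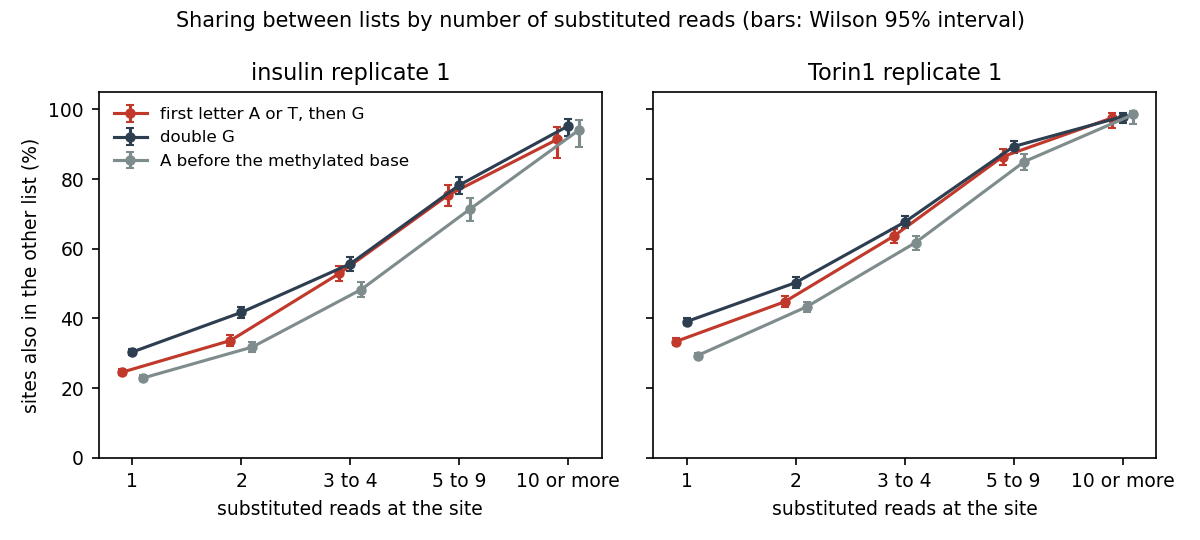
Percentage of sites also present in the other condition's list, by number of substituted reads, for insulin replicate 1 and Torin1 replicate 1, with Wilson 95% intervals as bars. Members rise from 24.5% to 91.4% with insulin and from 33.4% to 97.5% with Torin1, below double-G sites at 1 substituted read.

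The last letter separated well-shared from poorly shared members. Averaged over libraries, 35.2% of members ending in T and 21.3% of those ending in C were shared, a difference of 13.9 ± 5.35 points (SD, 6 of 6 libraries, exact permutation p = 0.03125, adjusted p = 0.0443). In the insulin list the order was AGACT at 33.4%, TGACT at 30.0%, AGACA at 27.3%, TGACA at 22.6%, AGACC at 18.0% and TGACC at 15.6%. The Torin1 list gave the same order, with 49.98%, 46.2%, 42.6%, 36.2%, 30.0% and 25.8%. Neighbours in this order had intervals that did not overlap in the insulin list, except AGACC (16.7% to 19.4%) and TGACC (14.1% to 17.2%). AGAC members were shared more than TGAC members, 32.3% against 29.3% (6 of 6 libraries, exact permutation p = 0.03125, adjusted p = 0.0443). That first-letter difference was 1.53 points with at least 2 substituted reads (exact permutation p = 0.281) and -1.03 with at least 10 reads (p = 0.969).

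At members listed under replicate 1 in both lists, reads were higher and fractions lower in the Torin1 list. The median was 21 reads with insulin and 36 with Torin1, and Torin1 had more reads at 76.5% of the 4960 positions. The median fraction was 0.0960 with insulin and 0.0577 with Torin1, and it was higher with insulin at 70.5% of positions. Pooled over these positions, 7.21% of reads were substituted with insulin and 3.75% with Torin1. The 6419 double-G positions of the same kind gave 8.76% and 4.70%, with a higher fraction with insulin at 73.6%. Each side is 1 library, so condition and library depth cannot be told apart. At 74 shared members both lists had 10 or more substituted reads.

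Members lay mostly toward the ends of genes. Of insulin members 82.9%, and of Torin1 members 83.8%, were in exactly 1 protein-coding gene on their strand. The median distance to the annotated gene end was 3647 nt with insulin and 3588 nt with Torin1, measured along the genome with introns. The final 20% of the gene body held 58.8% and 55.9%, and the stretch within 2000 nt of the gene end held 32.7% and 34.3%. By library the latter was 33.9%, 31.3% and 32.5% with insulin and 34.3%, 32.1% and 34.5% with Torin1, and the groups overlapped. Over libraries it averaged 33.1% for members and 33.9% for double-G sites (exact permutation p = 0.344), and 30.6% for sites with A before the methylated base, lower in 6 of 6 (exact permutation p = 0.03125, adjusted p = 0.0443). The latter difference was 1.46 points with at least 5 reads (exact permutation p = 0.125) and -2.52 with at least 10 (p = 0.719). Counted by the final 20% of the gene body, members were 3.14 points above double-G sites (exact permutation p = 0.03125), so the direction of that contrast depends on the measure.

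The clearest difference in place was at gene starts, where members were scarcer than double-G sites. Within 2000 nt of the annotated start lay 9.47%, 9.22% and 10.8% of members in insulin replicates 1 to 3 and 11.2%, 9.88% and 10.2% in Torin1 replicates 1 to 3. The mean was 10.1% for members and 15.7% for double-G sites, a difference of -5.56 ± 2.00 (SD, 6 of 6 libraries, exact permutation p = 0.03125, adjusted p = 0.0443). With at least 10 reads it was -1.52 (exact permutation p = 0.531). Sites with A before the methylated base had 10.1% there, as members did, a difference of 0.0560 points (exact permutation p = 0.75). Over all sites the scarcity of members was thus relative to double-G sites and not particular to members. With at least 5 reads members were 2.33 points below sites with A before the methylated base (-2.33, exact permutation p = 0.03125). Members ending in C stood apart within the class, with 13.8% near the start against 9.65% of those ending in T (6 of 6 libraries, exact permutation p = 0.03125, adjusted p = 0.0443). That difference was -4.07 points with the RefSeq table's strands alone (exact permutation p = 0.0625). AGAC and TGAC members had 10.4% and 9.81% there (exact permutation p = 0.688).

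**Figure D4:**
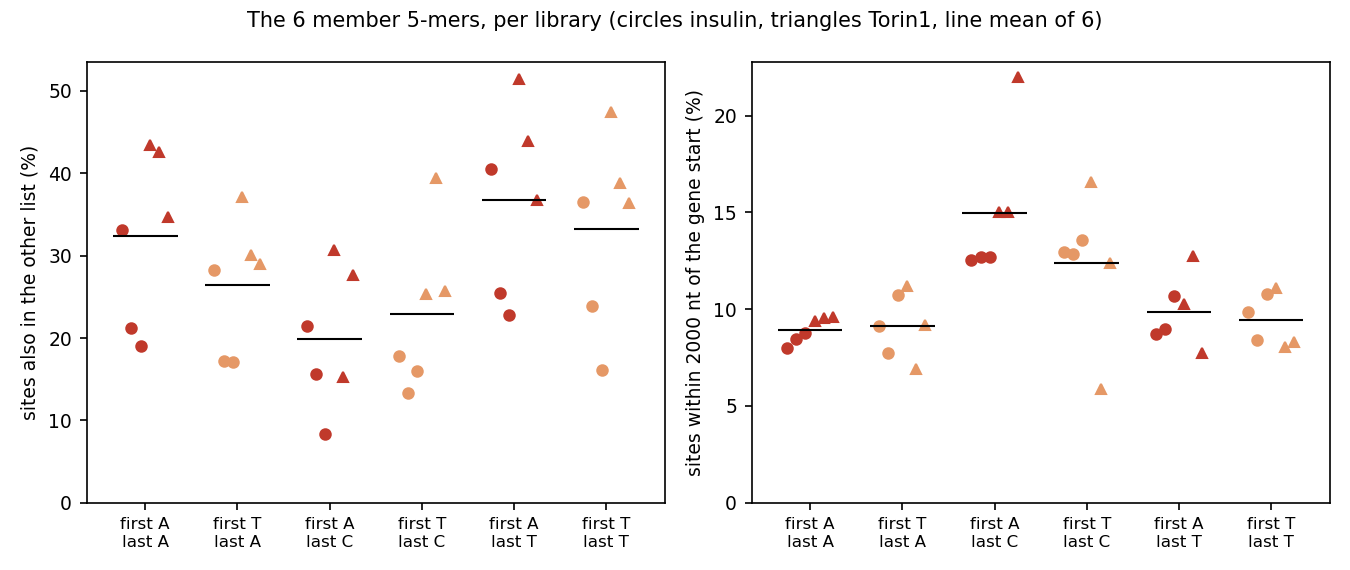
The 6 member 5-mers by first and last letter, with the percentage of sites also in the other list (left) and within 2000 nt of the gene start (right), per library, insulin as circles, Torin1 as triangles and the mean of 6 libraries as a line. In both panels the 5-mers ending in C differ from those ending in T, with averages of 21.3% against 35.2% shared and 13.8% against 9.65% near the start.

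Another listed site lay within 50 nt of 38.9% of insulin members and 32.5% of Torin1 members, and for 14.5% and 12.5% that neighbour included a double-G site. Sites of the other classes had such a neighbour at similar rates, 34.9% and 30.5% of double-G sites and 37.0% and 30.7% of sites with A before the methylated base, with no test of the difference. The mitochondrial genome, whose transcripts are made in the organelle, carried only 38 members with insulin and 37 with Torin1. They had a median of 204.5 and 449 reads, with 0.7997% and 0.382% of reads substituted, well below the 9.52% and 5.02% pooled over all members.

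Member sites were found in 7698 genes with insulin and 6941 with Torin1. Both lists shared 5595 of these genes, which is 72.7% of the insulin list's and 80.6% of the Torin1 list's. The median gene had 2 members in either list. At least 10 members were found in 402 genes with insulin and 97 with Torin1. MKI67, the proliferation marker, held the most with insulin, 43, and 25 with Torin1. SON had 42 and 28, and SPEN, a transcriptional corepressor, had 40 and 31, the most with Torin1. Under replicate 1 alone MKI67 had 22 and 24, SON 29 and 25, and SPEN 26 and 30. The excess with insulin at MKI67 and SPEN was thus in positions listed under insulin replicates 2 and 3. Each position is listed under 1 replicate only, so these counts do not show which libraries detected a site. NSD1, a histone H3 lysine methyltransferase gene, had 34 and 24 over all libraries and 18 and 22 under replicate 1.

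Other genes lost most of their members in the Torin1 list, also under replicate 1 alone. MAP1B, which encodes a microtubule-associated protein, had 40 members with insulin and 6 with Torin1, and 23 and 5 under replicate 1. PRR14L went from 33 to 3 (replicate 1, 22 and 3), PEAK1, a cytoskeletal pseudokinase gene, from 40 to 11 (26 and 11), SMCR8, a partner of C9orf72, from 33 to 6 (20 and 5), and CASP8AP2, which acts in histone mRNA processing, from 35 to 9 (21 and 8). Over all sequence classes these genes lost sites likewise, from 99 to 11 in MAP1B, 102 to 12 in PRR14L, 101 to 37 in PEAK1, 84 to 33 in SMCR8 and 86 to 19 in CASP8AP2. Over the whole lists, of which the insulin list is the longer, the gains were smaller. VCAN, the matrix proteoglycan versican, went from 2 to 13 (1 and 12), PCDH7, a protocadherin gene, from 12 to 19 (6 and 19), ARHGEF17 from 5 to 12 (2 and 10), CELSR1, a planar polarity cadherin gene, from 3 to 10 (2 and 10), and EMILIN3, a matrix glycoprotein gene, from 3 to 10 (2 and 9). WDR27 had 18 and 23 (5 and 22) and FAT1, an atypical cadherin gene, 16 and 21 (9 and 19). Counts per gene have no test here, since each position was listed under a single replicate.

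**Figure D5:**
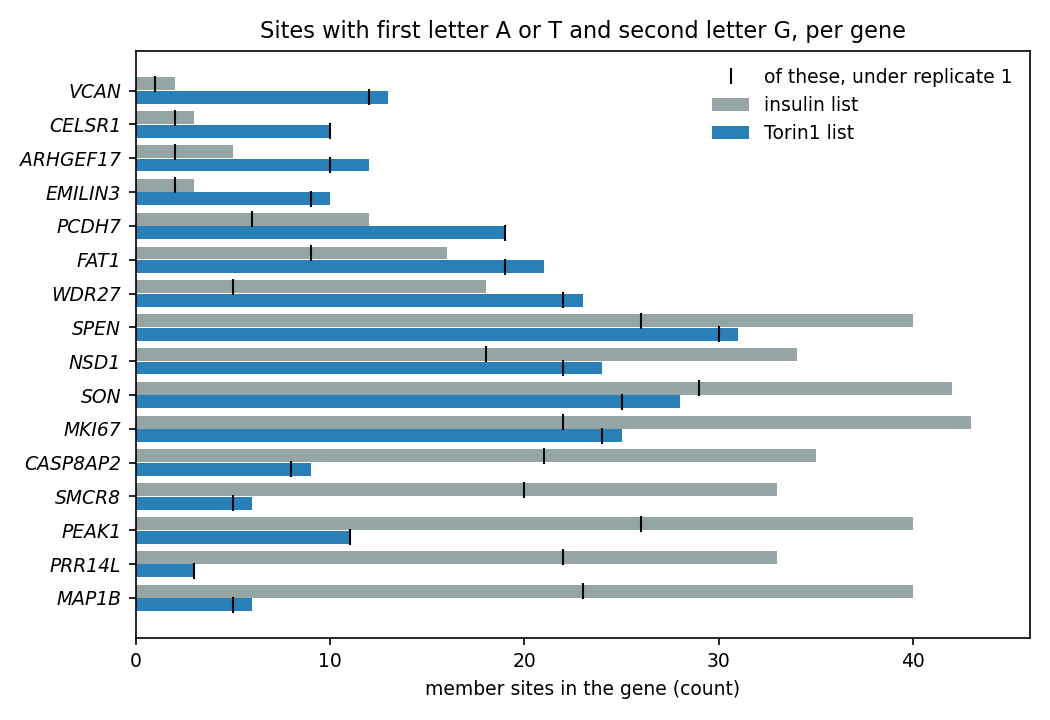
Number of member sites per named gene in the insulin list (grey) and the Torin1 list (blue), with a tick for those listed under replicate 1. MAP1B falls from 40 to 6 and VCAN rises from 2 to 13, while MKI67 has 22 and 24 under replicate 1.

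Of the 5 genes with the largest losses, MAP1B, PRR14L, PEAK1 and SMCR8 had lower mRNA with Torin1, and no expression value is given here for CASP8AP2. VCAN, PCDH7, ARHGEF17, CELSR1, EMILIN3, WDR27 and FAT1, which gained members, had higher mRNA. A gain did not always go with higher mRNA. VIRMA and YTHDF1, genes of the m6A machinery, had more members in the Torin1 list but lower mRNA. The deposited input values, normalized and rounded by the authors, were 6754, 6434 and 6874 for MAP1B with insulin and 1016, 1054 and 1008 with Torin1, with no overlap. The log2 fold change was -2.70 ± 0.0363 (SE, limma adjusted p = 9.2e-25). PRR14L had 10291, 10467 and 9857 with insulin and 1067, 1076 and 1091 with Torin1, a log2 fold change of -3.24 (limma adjusted p = 1.2e-26). PEAK1 fell by 1.69 and SMCR8 fell by 2.04 on the log2 scale. VCAN had 177, 139 and 173 with insulin and 2761, 2741 and 2695 with Torin1, a log2 fold change of 4.07 (limma adjusted p = 3.6e-23). CELSR1 was at 3.08, EMILIN3 at 2.46, FAT1 at 1.38, ARHGEF17 at 1.26, PCDH7 at 1.24 and WDR27 at 0.72, each called higher by limma.

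The genes with the most members did not move together. In normalized units, MKI67 averaged 9953 ± 57.5 with insulin and 5470 ± 88.1 with Torin1 (SD, n = 3 each). It fell by 0.86 and NSD1 fell by 0.75 on the log2 scale. SPEN rose by 0.36. SON averaged 10295 ± 249 and 9333 ± 101 units (SD, n = 3 each). Its log2 fold change of -0.14 was called (limma adjusted p = 9.7e-05) and was -0.02 with libraries scaled to equal totals (adjusted p = 0.604). Sites listed under replicate 1 in MKI67 and NSD1 were thus no fewer with Torin1 than with insulin, while their mRNA was lower. Over the whole lists both had fewer members with Torin1, 43 and 25 in MKI67 and 34 and 24 in NSD1. Mean reads per member were 20.9 in insulin replicate 1 and 43.8 in Torin1 replicate 1, and the part of depth was not tested.

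Over all 13842 genes tested, limma at an adjusted p below 0.05 called 43.4% higher and 42.5% lower with Torin1, 86.0% in all, with a median log2 fold change of 0.02. Of 8774 tested genes with a member in either list, 3560 were higher (40.6%) and 4199 lower (47.9%), with a median of -0.09. Where members were listed with insulin only, 29.2% of 2006 genes were higher and 57.8% lower, with a median of -0.36. Where they were listed with Torin1 only, 70.6% of 1270 were higher and 18.6% lower, with a median of 0.78. Within replicate 1 these medians were -0.44 for 1367 genes and 0.51 for 2183. Of 399 tested genes with 10 or more members with insulin, 340 were lower (85.2%), with a median of -0.93, and of 95 such genes with Torin1, 44 were higher and 45 lower. Across the 8774 genes the change in member number and the log2 fold change had a Spearman rank correlation of 0.508, and 0.439 over 7786 genes with replicate 1 sites, a description over genes that share libraries. The part of mRNA level in which sites were listed was not tested. Scaling to equal totals shifted the median of all genes by 0.12 and turned the median of genes with members to 0.04, still 0.10 below that of all genes.

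Genes of the m6A machinery carried members themselves. Of 21 such genes, 19 had at least 1 member in either list, and in YTHDC1 no site of any class was listed. Members are common: among all protein-coding genes with a listed site, 9044 had a member and 2014 had none. Members in the machinery genes numbered 106 with insulin and 72 with Torin1, and 60 and 67 under replicate 1. Among writers, RBM15, which helps recruit the complex to RNA, had 17 and 9, and its relative RBM15B 15 and 9. ZC3H13 had 9 and 5, WTAP 7 and 7, METTL14 5 and 5, VIRMA 5 and 7, and METTL3, the catalytic subunit, 1 and 0. The readers YTHDF2, YTHDF3 and YTHDF1 had 9 and 5, 7 and 6, and 5 and 6. Of the erasers, FTO had 2 and 1, and ALKBH5 had none although 14 and 4 sites of other classes lay in it. By limma 14 of the 21 mRNAs were lower with Torin1 and 6 higher, with a median log2 fold change of -0.28. Of all genes tested 42.5% were lower and 43.4% higher, with a median of 0.02. RBM15 fell by 1.59 and METTL14 by 1.00 on the log2 scale, while WTAP rose by 0.47 and YTHDC2, a reader with helicase activity, by 0.81. In RBM15 both members and mRNA were lower with Torin1, but they did not always move together. VIRMA was at -0.61 and YTHDF1 at -0.49, both with more members in the Torin1 list. HNRNPA2B1 was at 0.88, while its members went from 6 to 1. ZC3H13 (-0.15) and YTHDC1 (-0.13), both called lower, were at 0.07 (adjusted p = 0.137) and 0.16 (adjusted p = 5.9e-04) with quantile normalization, and RBM15B (-0.23) at 0.02 (adjusted p = 0.688). YTHDF3 (-0.28) was at -0.01 with it (adjusted p = 0.865). With equal totals ZC3H13 (adjusted p = 0.552) and YTHDC1 (adjusted p = 0.974) were not called and IGF2BP2 was called higher, at 0.17. Without Torin1 replicate 3 YTHDC1 was at -0.09 (limma adjusted p = 0.0520).

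Input libraries had normalized totals of 11418114 to 12528454 units over 17520 genes. Of kidney lineage markers, LHX1 was at 131 to 153 units and PAX2 at 6 to 11, while WT1 averaged 20.7 with insulin and 42.7 with Torin1 and SIX2 30 and 79.3. The blood marker PTPRC was at 0 to 1 in all 6 libraries. VIM, a mesenchymal marker, averaged 2915 units with insulin and 7922 with Torin1, and COL1A1 and COL3A1, collagen genes, 214 and 497, and 5 and 34.3. Of epithelial markers, KRT8 averaged 208 and 417, KRT18 128 and 190 and CDH1 96.7 and 153, while EPCAM went the other way with 266 and 152. The blood markers CD14 and HBA1 averaged 88.7 and 22.7 units with insulin and 4 and 1.67 with Torin1. The part of these differences in the member genes' values was not tested.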

How the data were processed

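Site lists and gene expression were analysed for HEK293E cells given insulin or insulin and Torin1. The authors deposited 1 site list per condition on hg38. The submitters' processing notes name BWA 0.7.1, STAR, DESeq2 1.22.2 and DESeq, with no role for each. Each row held reads over the site, substituted reads and a 5-mer. The value of each site was deposited as a fraction, substituted reads divided by reads, with no further normalization. A position occurred once per list, under 1 replicate, so recurrence among replicates was not analysed here. The intervals cover counting error only. The deposited expression table held a score per gene, counts that the authors had scaled per library and rounded, as its grid of low values shows. The planned count tests were therefore not used, and raw depth is not given here.

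Sites lying in exactly 1 protein-coding gene body of RefSeq GRCh38.p14 on their own strand were assigned to it. The strand came from the RefSeq promoter table for 15843 of 20050 genes. For 1262 others it was that of over 80% of at least 5 listed sites, a rule that gave the table's strand in 96.9% of 6215 genes. Exon, intron and UTR were not analysed here.

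Sequence classes were compared within each of the 6 miCLIP libraries by exact sign-flip permutation, two-sided, adjusted over 34 tests by Benjamini-Hochberg. The replicates of a list hold separate parts of it, so they are not independent sets of sites, which none of these tests accounts for. The comparisons of first letters beyond the last letter, of last letters with each other, and of distance to the gene start were added after the data were seen. Conditions were compared over 3 and 3 libraries by exact permutation. Expression was fitted with limma 3.58.1 (trend) in R 4.3.3 on log2(value + 1) over genes reaching a value of 10 in 3 or more libraries, adjusted over all 13842 genes tested. Both procedures were tested on simulated data. Site work used Python 3.11.15, numpy 2.4.6, pandas 2.3.3 and scipy 1.17.1.

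Named genes were the 6 with the most member sites in each list, the 5 largest gains, the 5 largest losses and 21 genes of m6A enzymes and readers. Named sites included the 3 highest members per list, wherever they lay. They also included, for each 5-mer, the site in both lists with the most substituted reads in 1 protein-coding gene, with 1 chromosome left out. Printed contexts were the highest such sites within RefSeq windows and hairpins, in 1 protein-coding gene. The sequence classes, members and gene lists were chosen with earlier results of these data known.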

Additional observations from a re-analysis of the deposited data

How the results depend on the processing

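Of 858 values recomputed under an alternative, 761 were counted as unchanged (named genes 423 of 432). For named genes this meant the same direction and side of the threshold, and numbers of genes and medians were judged by size. With 1 library left out, class differences that kept their direction were counted as unchanged. There the p of each called class difference was 0.0625 (exact sign-flip permutation), the smallest that this test allows with 1 library left out. No call was possible in that setting, so it cannot show whether the calls depend on 1 library. Cutting on reads left few sites in the small libraries, 17 members with at least 10 reads in Torin1 replicate 2 and 76 in replicate 3, which limits those settings. The other causes were not tested.

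With at least 10 reads, the Torin1 against insulin difference was 0.986 for the member share and 3.06 for the AGAC share. Members against double-G sites stood at -0.834 for ending in A, 9.32 for ending in T, -3.27 for the pooled percentage and -4.86 for sharing. Against sites with A before the methylated base they stood at 0.783 for reads, 0.0412 for substituted reads, 0.707 for the pooled percentage, 2.63 for sharing, -2.52 for the gene end and -6.59 for the gene start. AGAC against TGAC was -4.67 for ending in A, 1.90 for ending in T, -1.03 for sharing and 7.06 for the gene end. Members ending in T against C were at -2.51 for the gene end.

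With at least 5 reads, the member share difference was 1.73. Members against double-G sites were at -2.01 for ending in A. Against sites with A before the methylated base they were at 1.68 for reads, 0.0816 for substituted reads, -3.10 for a single substituted read, 1.11 for the pooled percentage, 0.878 for sharing, 1.46 for the gene end and -2.33 for the gene start. AGAC against TGAC was 0.977 for ending in A and -1.19 for ending in T, and T against C -3.23 for the gene end.

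With at least 2 substituted reads the member share difference was 0.958, sharing against double-G sites -4.9996, the gene start against sites with A before the methylated base -0.531, and ending in A for AGAC against TGAC 5.03. With at least 3 these were 0.653, -3.70, -0.0393 and 7.63, with -5.28 for ending in C and 0.769 for the gene end against double-G sites, 2.96 for sharing against sites with A before the methylated base, and -2.39 for the gene start of AGAC against TGAC. With exactly 1, the AGAC share difference was 1.10 and ending in T for AGAC against TGAC -2.39.

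Medians over sites gave -0.167 reads against double-G sites, and 1.17 reads and 0 substituted reads against sites with A before the methylated base. The mean of the sites' own fractions gave -0.493 against double-G sites. The gene-end contrast with double-G sites was 1.23 within 5000 nt and 3.14 for the final 20% of the gene body.

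Leaving out each library in turn gave a member share difference of -0.936 to -0.376 and an AGAC share difference of -1.04 to 1.06. The gene start contrasts that changed sign ranged from -0.0755 to 0.156 (against sites with A before the methylated base) and -0.227 to 0.968 (AGAC against TGAC). The median log2 fold change of genes with members ranged from -0.0960 to -0.0790. It was 0.0393 with equal totals and -0.0405 with quantile normalization, which put ZC3H13 at 0.066, RBM15B at 0.0195 and YTHDC1 at 0.16.

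Replicate numbers did not pair the input libraries (correlations of same-numbered deviations -0.0234, 0.00972 and -0.00399). Blocking on the replicate number gave p = 0.25 for the member share and p = 1 for the AGAC share (exact sign-flip permutation over 3 pairs, smallest p 0.25), differences of -0.681 and -0.0121, and 3536 genes with members higher and 4182 lower (median -0.0852). Count tests with edgeR and DESeq2 were not run, since the deposited table does not hold raw counts. No result met the criteria for a closer look: groups of 3 are not tested for outliers, and class differences between conditions could not be called, since 3 against 3 libraries allow no p below 0.1.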
